A study of Mus musculus with 6 samples.

Results

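Neuronal nicotinic acetylcholine receptor genes were examined in cells sorted for Ret and Nav1.8, genes of pain-sensing neurons, from dorsal root ganglia of mouse embryos. The family was taken as 10 named genes, the alpha subunit genes Chrna2, Chrna3, Chrna4, Chrna5, Chrna6, Chrna7 and Chrna10 and the beta subunit genes Chrnb2, Chrnb3 and Chrnb4. All 10 were found by Ensembl identifier among the 41388 genes listed in each library, and the rule that names them applies no cut to a measured value. The series consists of 6 RNA-seq libraries of EGFP-positive cells from C57BL/6 embryos at 18.5 dpc, of which 3 are female and 3 male, each called by its sex and a letter. Every embryo carried RetFloxedEGFP, which reports the Ret gene with a green fluorescent protein, together with Scn10a<tm2(cre)Jnw>, a Cre recombinase in the locus of the sodium channel Nav1.8. The 3 female libraries and male A were each a pool of 40 ganglia of 2 embryos, male B was a pool of 60 ganglia of 3 embryos, and male C came from 20 ganglia of 1 embryo. The ganglia spanned spinal levels T11 to S1. For male C the genotype field names RetFloxedEGFP alone, while its title names the Cre driver too. The labels do not say whether 1 or 2 copies of the Ret reporter were present, and all libraries carry both alleles, so none stands for unaltered animals.

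Nicotinic receptors are cation channels that open when acetylcholine binds. Each channel is built from several subunits around a central pore, and the subunit mix sets its pharmacology, its calcium permeability and how fast it desensitises. In sensory neurons these receptors depolarise the cell, and receptors that contain the Chrna6 product have been linked to pain sensitivity in mice. Ganglion-type receptors combine the Chrna3 and Chrnb4 products, often with that of Chrna5. Brain-type receptors combine those of Chrna4 and Chrnb2. The Chrna7 product can form channels on its own, and the Chrna10 product assembles with that of Chrna9 in cochlear hair cells.

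An alpha subunit is defined by a pair of adjacent cysteines at the acetylcholine-binding loop. Coding stretches of 33 bases around that pair were read from GENCODE M21 transcripts and are shown for the 4 alpha genes of highest level and for Chrna5, 5′ to 3′, with the 2 cysteine codons in capitals.
Chrna6: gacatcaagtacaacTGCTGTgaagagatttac
Chrna3: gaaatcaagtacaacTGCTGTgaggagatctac
Chrna7: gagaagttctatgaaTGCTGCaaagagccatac
Chrna4: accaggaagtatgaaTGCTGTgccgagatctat
Chrna5: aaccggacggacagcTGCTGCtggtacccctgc
All 7 alpha genes held the pair, and none of the 3 beta genes held one within 90 codons after the start of the cysteine loop that the whole family shares. A tyrosine codon stood 2 codons before the pair in 6 of the 7 alpha genes, and Chrna5 was the exception. The Chrna5 product is known as an accessory subunit that does not form the usual binding site.

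Total depth ran from 15693013 reads in male C to 24033601 reads in female B, and 19526 to 21755 genes had at least 1 read. The sorted cells expressed the sort genes Scn10a at 119 ± 16.8 RPKM and Ret at 27.8 ± 3.83 RPKM (SD, n = 6), where RPKM is the read count scaled to gene length and to normalised library size. All 8 pan-neuronal genes, all 6 peptidergic and all 7 nonpeptidergic nociceptor genes had reads in every library. Markers of other cells were present too. All 8 genes of satellite glia and Schwann cells had reads in every library, with a summed level of 1112 to 1438 CPM (counts scaled to library size alone), against 70.1 to 94.3 CPM for the 10 nicotinic genes together. The 5 erythroid genes were uneven, with a sum of 1020 CPM in male A and 34.6 to 184 CPM in the other libraries. Of the autonomic neuron markers, Phox2a and Slc6a2 had 0 reads, Hand2 had 1 and Dbh had 4, while Slc18a2 lay at 13.98 ± 2.68 RPKM. Of 5 spinal cord motor neuron genes, Mnx1 had 0 reads, Lhx3 and Chat had 1 each and Slc18a3 had 5, while Isl2, also a gene of sensory neurons, lay at 47.3 ± 7.25 RPKM. Libraries fell into groups that crossed the sexes. A chi-square of counts over genes gave 7.4 per degree of freedom for female C against male B and 20.7 to 25.3 among female A, female B and male A, while every remaining pair gave 49.7 to 74.7. Male C, the single-embryo library, gave 49.7 to 62.2 against the others, and values without it follow the order of levels and the partner ratios.

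The receptor family was present at low to moderate levels, and 2 subunit genes made up most of it. Summed over the 10 genes, the level was 20.95 ± 2.39 RPKM (SD, n = 6), from 18.7 in male A to 25.01 in male C. Chrnb2 supplied 30.6 ± 2.64% of that sum and Chrna6 28.9 ± 8.50%, followed by Chrna3 with 14.6 ± 2.85% and Chrna7 with 13.2 ± 7.57%. Chrnb4 and Chrna4 followed with lower shares, Chrnb3 and Chrna5 were detected at a trace, Chrna10 was at the edge of detection and Chrna2 had no read. Of the 10 genes, 8 had reads in all 6 libraries. Fewer expressing cells and less RNA per cell cannot be told apart in such pooled material. Only the sorted population was analysed here, so these levels are compared between genes, within libraries and per gene length.

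**Figure D1:**
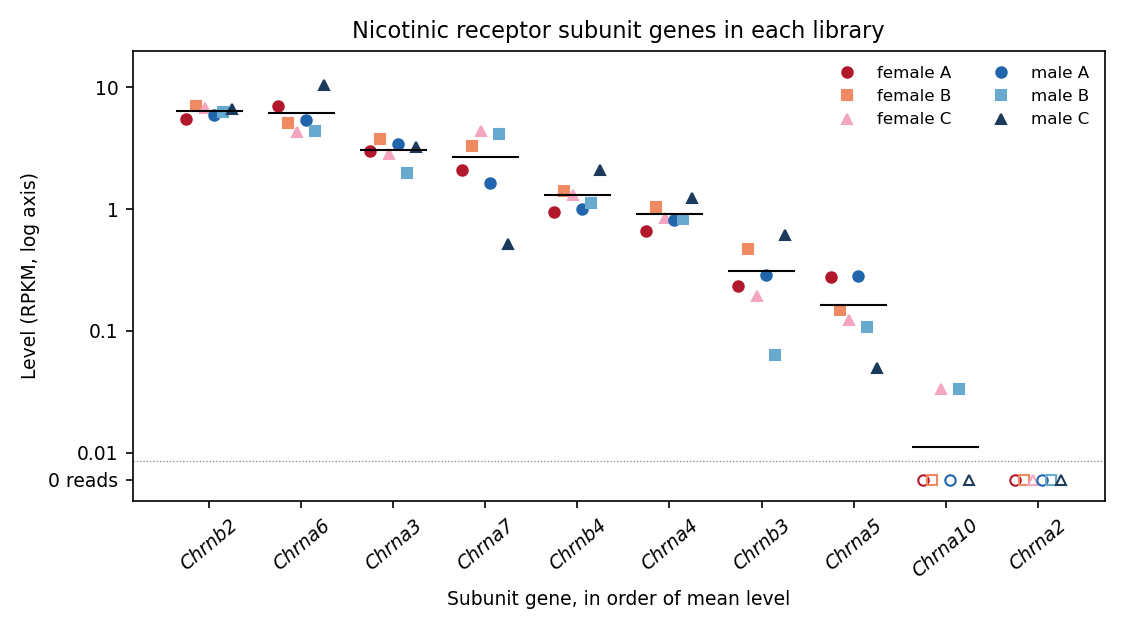
Level of each nicotinic subunit gene in RPKM on a log axis, 1 symbol per library, with a bar at the mean of the 6 libraries and open symbols on the lower line for libraries with 0 reads. Chrnb2 lies in a tight row between 5.53 and 7.02 RPKM, Chrna7 spreads from 0.515 to 4.35 RPKM, and Chrna2 has open symbols only.

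Chrnb2 (ENSMUSG00000027950) encodes the beta subunit that partners most brain alpha subunits. It lies on the minus strand of chromosome 3, from 89753448 to 89764632 on GRCm38.p2, with 6 exon blocks and 5384 exonic bases in the deposited annotation. Its level was 5.53, 7.02 and 6.82 RPKM in the female libraries A, B and C and 5.90, 6.29 and 6.71 RPKM in the male libraries A, B and C. These 6 values lie close together, with a mean of 6.38 ± 0.579 RPKM (SD, n = 6) from 4317 reads in all. It was the steadiest member. Its coefficient of variation was 9.08%, against 3.81% from read counting alone, and 5936 genes had a higher mean RPKM.

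Chrna6 (ENSMUSG00000031491) encodes an alpha subunit otherwise best known from dopamine neurons and the retina. The gene lies on chromosome 8, minus strand, from 27403214 to 27413944, with 6 exon blocks and 2904 exonic bases. It measured 7.09, 5.14 and 4.28 RPKM in the female libraries A, B and C and 5.39, 4.38 and 10.6 RPKM in the male libraries A, B and C, a mean of 6.14 ± 2.39 (SD, n = 6; 2092 reads). Male C stood highest and female A next, while female C and male B were lowest, so both sexes held high and low libraries. Without male C the mean was 5.26 RPKM. The ratio of the highest to the lowest library was 2.47, and the coefficient of variation of 38.9% exceeded the 5.48% expected from counting.

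Chrna3 (ENSMUSG00000032303), the alpha subunit of ganglion-type receptors, lies on chromosome 9, minus strand, from 55011343 to 55026559, with 3123 exonic bases. Its level was 3.02, 3.80 and 2.86 RPKM in the female libraries A, B and C and 3.42, 1.98 and 3.23 RPKM in the male libraries A, B and C (mean 3.05 ± 0.619, SD, n = 6; 1185 reads). Male B was lowest and female B highest, and the other 4 libraries lay between 2.86 and 3.42 RPKM. Its partner Chrnb4 (ENSMUSG00000035200; chromosome 9, minus strand, 55028156 to 55048544) measured 0.939, 1.396 and 1.31 RPKM in the female libraries A, B and C and 1.01, 1.13 and 2.10 RPKM in the male libraries A, B and C. Its mean was 1.31 ± 0.424 RPKM (SD, n = 6; 560 reads), and male C was again the highest library.

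Chrna7 (ENSMUSG00000030525), whose product forms fast calcium-permeable channels, lies on chromosome 7, minus strand, from 63098692 to 63212526, with 10 exon blocks and 2091 exonic bases. Its level was 2.11, 3.31 and 4.35 RPKM in the female libraries A, B and C and 1.64, 4.13 and 0.515 RPKM in the male libraries A, B and C. Female C and male B stood highest, and male C stood far below every other library with 16 reads against 70 to 217. The mean was 2.68 ± 1.51 RPKM (SD, n = 6; 754 reads), and 3.11 RPKM without male C. The highest library exceeded the lowest 8.46-fold, and the coefficient of variation was 56.4%, against 9.03% from counting. Female C and male B also had the highest summed glial and fibroblast marker levels. The 8 glial genes summed to 1387 and 1438 CPM there and to 1112 to 1243 CPM in the other 4 libraries, with 1243 CPM in male C. The 6 fibroblast genes summed to 582 and 727 CPM there and to 430.6 to 541 CPM elsewhere. Large-diameter sensory neuron genes, 7 of 7 with reads in every library, summed to 332.5 to 393 CPM, with 339 CPM in male C. Of these 7, Pvalb (0.840 RPKM against 4.55 to 11.3 elsewhere), Ntrk3, Runx3 and Nefh were lowest in male C, as Chrna7 was. Nefh was nearly as low in female A, at 17.75 RPKM against 17.55 in male C. Etv1, Ntrk2 and Spp1 were not lowest in male C, where they measured 38.85, 2.45 and 0.939 RPKM. Etv1 was higher there than in most libraries. The part of these other cells in the Chrna7 pattern was not tested.

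Chrna4 (ENSMUSG00000027577; chromosome 2, minus strand, 181018380 to 181043546), the main alpha subunit of brain-type receptors, measured 0.663, 1.04 and 0.841 RPKM in the female libraries A, B and C. The male libraries A, B and C gave 0.814, 0.836 and 1.23 RPKM, for a mean of 0.904 ± 0.199 over all libraries (SD, n = 6; 554 reads). Male C was the highest library and female A the lowest. Chrnb3 (ENSMUSG00000031492; chromosome 8, plus strand, 27368711 to 27399729), a subunit that commonly joins Chrna6-containing receptors, measured 0.233, 0.472 and 0.192 RPKM in the female libraries A, B and C and 0.289, 0.0636 and 0.616 RPKM in the male libraries A, B and C. The mean was 0.311 ± 0.200 RPKM (SD, n = 6; 169 reads), and male B had 7 reads of it against 42 in the shallower male C.

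Chrna5 (ENSMUSG00000035594; chromosome 9, plus strand, 54980880 to 55007779) had 56 reads in all, 2 to 17 per library, and averaged 0.1645 ± 0.0951 RPKM (SD, n = 6). Chrna10 (ENSMUSG00000066279; chromosome 7, minus strand, 102111266 to 102116713) had 4 reads, 2 in female C and 2 in male B, and 0 in the other 4 libraries. Chrna2 (ENSMUSG00000022041; chromosome 14, plus strand, 66140960 to 66152948), an alpha subunit of restricted brain expression, had 0 reads in every library. A count of 0 allows up to 3 reads, which is 0.0348 RPKM in female B and 0.0572 RPKM in male C, or 0.00681 RPKM over the 6 libraries together. Against that pooled limit the mean of Chrnb2 was 937-fold higher and that of Chrna5 24.2-fold higher, with no allowance for the error of these means. The limits for Chrna2 cover counting error only, since copies made by PCR are counted as separate reads when no molecular identifier is used. No exon block of any member overlapped another listed gene on either strand in the deposited annotation.

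In order of mean level the genes ran Chrnb2, Chrna6, Chrna3, Chrna7, Chrnb4, Chrna4, Chrnb3, Chrna5, Chrna10 and Chrna2, and not every step in that order held within libraries. Chrnb2 exceeded Chrna6 in 4 of 6 libraries, with a mean log2 ratio of 0.13 ± 0.53 (SD, n = 6), so these leading genes did not differ beyond their spread. Chrna6 exceeded Chrna3 in 6 of 6 libraries by 0.96 ± 0.49 log2 units. Chrna3 exceeded Chrna7 in 4 of 6, by 0.46 ± 1.32, and Chrna7 exceeded Chrnb4 in 5 of 6, by 0.78 ± 1.44. These steps lay within their spread, and without male C the mean of Chrna7, 3.11 RPKM, passed that of Chrna3, 3.02 RPKM. Chrnb4 exceeded Chrna4 in all 6 libraries, by 0.51 ± 0.17 log2 units. Chrna4 exceeded Chrnb3 in all 6, by 1.83 ± 1.00. Chrnb3 exceeded Chrna5 in 4 of 6, by 0.83 ± 1.61, again less than its spread. Without male C, the same steps from Chrnb2 down to Chrna5 had mean log2 ratios of 0.28, 0.81, 0.02, 1.34, 0.46, 2.00 and 0.27. The means without male C were 6.31 RPKM for Chrnb2, 1.16 for Chrnb4, 0.8395 for Chrna4, 0.250 for Chrnb3 and 0.1876 for Chrna5. Each step kept its sign as a mean of log2 ratios, and the order of Chrna3 and Chrna7 by mean RPKM turned. Without division by gene length, in CPM, Chrnb2 exceeded Chrna6 by 1.02 log2 units and Chrnb4 exceeded Chrna4 by 0.01, since these values depend on the deposited gene lengths.

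The spread between libraries differed widely among the members. The biological coefficient of variation, the part of the spread left after counting error in edgeR's model of all 15026 tested genes, had a median of 0.226 over all genes. Chrnb2 had 0.167, lower than most genes, at percentile 8.34 of the 2159 genes within 0.5 log2 CPM of its level. Chrna7 had 0.493, at percentile 97.7 of the 1537 genes of like level. Chrnb3 had 0.525 (percentile 95.9 of 1304) and Chrna6 had 0.293 (percentile 90.9 of 2152). Chrna3 at 0.237, Chrnb4 at 0.285 and Chrna4 at 0.248 lay at percentiles 54.5, 63.2 and 31.4 of the genes of like level. The most abundant member was among the steadier genes of its level, and Chrna7 and Chrnb3 were among the most variable of theirs.

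**Figure D2:**
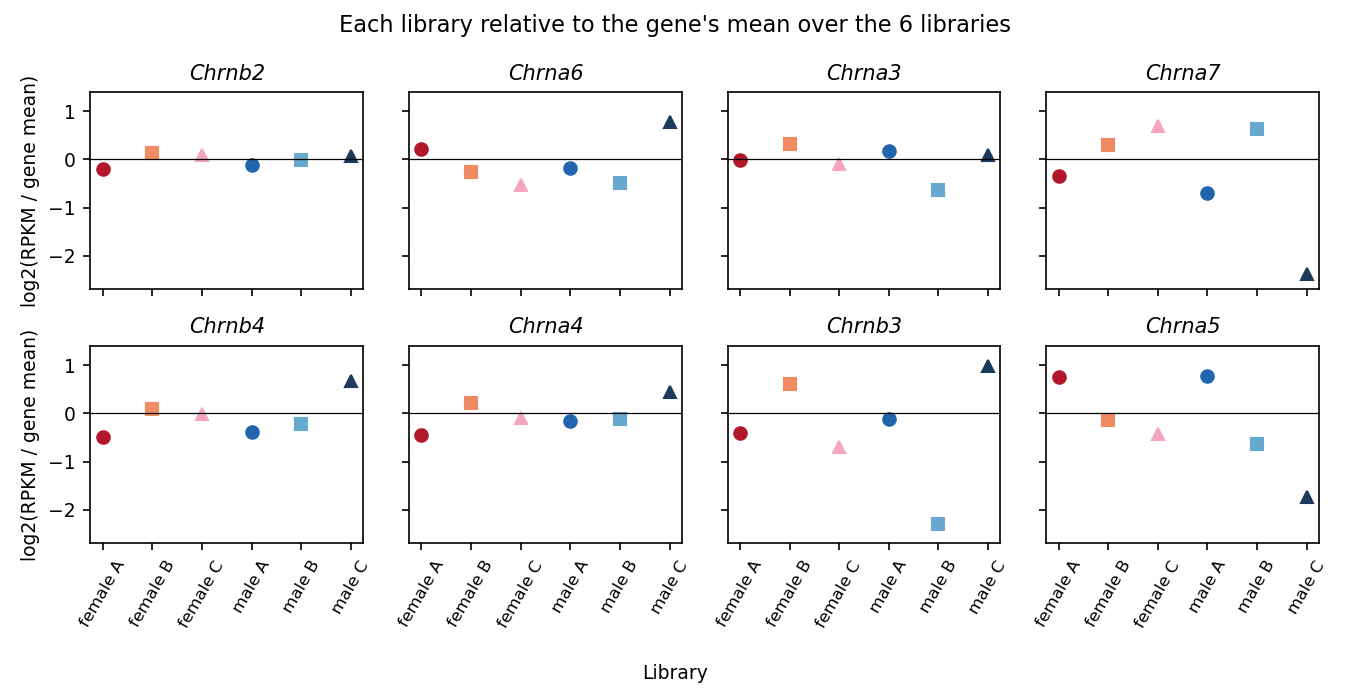
Each library's level as log2 of RPKM over the gene's mean of the 6 libraries, for the 8 subunit genes with reads in every library. Chrnb2 stays between −0.206 and 0.138, while Chrna7 and Chrna5 are lowest in male C and Chrnb3 is lowest in male B.

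The upstream sequence is shown for Chrnb2 and Chrna7, the steadiest and the most variable of the 4 leading genes. RefSeq on GRCm38.p6 held an entry for 7 of the 10 members, and not for Chrna2, Chrna6 and Chrnb3. The 250 bases before the start site are given 5′ to 3′ on the gene's own strand, for Chrnb2 at chr3:89764633-89764882 and for Chrna7 at chr7:63212527-63212776, both on the minus strand. Capitals mark a GC box, GGGCGG on either strand, the letters known to be bound by Sp1-type factors.
Chrnb2: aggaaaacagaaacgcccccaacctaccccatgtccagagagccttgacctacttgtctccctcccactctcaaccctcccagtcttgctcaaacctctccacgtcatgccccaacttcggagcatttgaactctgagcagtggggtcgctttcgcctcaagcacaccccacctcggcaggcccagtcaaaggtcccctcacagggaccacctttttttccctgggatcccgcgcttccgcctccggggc
Chrna7: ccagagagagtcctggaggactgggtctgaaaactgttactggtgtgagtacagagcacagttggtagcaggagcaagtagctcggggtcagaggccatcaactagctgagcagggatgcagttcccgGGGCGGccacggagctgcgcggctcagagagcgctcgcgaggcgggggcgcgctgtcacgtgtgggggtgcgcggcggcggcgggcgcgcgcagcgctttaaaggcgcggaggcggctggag
The Chrna7 stretch held 1 GC box and 25 CpG pairs at 67.2% GC, and the Chrnb2 stretch held 0 GC boxes and 10 CpG pairs at 59.6% GC. Among 32851 mouse promoters of the same length, 32.7% held a GC box, the median CpG count was 6 and the median GC content 52.4%. No member with an entry held TATAAA, which 12.4% of all promoters held. These matches describe letters in a window and say nothing about binding in these cells.

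Subunits known to assemble together, or that share a receptor type, were set against each other within libraries in chosen pairs. The RNA was unequal in each chosen pair, which does not cover every possible combination. Chrna6 and Chrnb2 were not among these pairs, and their levels were close. Chrnb2 exceeded Chrna6 in 4 of 6 libraries, with a mean log2 ratio of 0.13 ± 0.53 (SD, n = 6). Chrna3 exceeded Chrnb4 in 6 of 6 libraries, with a mean RPKM ratio of 2.47, from 1.54 in male C to 3.39 in male A (mean log2 ratio 1.24 ± 0.47, SD, n = 6). Chrna5, the accessory subunit of that receptor, stood at 0.149 times Chrnb4 on average, from 0.0234 in male C to 0.294 in female A. Chrna4 stood at 0.141 times Chrnb2, from 0.120 to 0.183. This last ratio was the least variable of the pairs, with a log2 value of −2.84 ± 0.22. Chrna6 exceeded Chrnb3 in 6 of 6 libraries, but the ratio ran from 10.9 in female B to 68.8 in male B (mean log2 ratio 4.55 ± 0.91), and 7 Chrnb3 reads lay behind the highest value. Chrna7 stood at 0.417 times Chrnb2, from 0.0767 in male C to 0.656 in male B (mean log2 ratio −1.55 ± 1.16). Without male C the mean log2 ratio was 1.37 for Chrna3 to Chrnb4, −2.73 for Chrna5 to Chrnb4, −2.92 for Chrna4 to Chrnb2, 4.64 for Chrna6 to Chrnb3 and −1.12 for Chrna7 to Chrnb2. Each pair had the same direction in every library, so leaving out a library could not reverse it. Summed alpha genes were 1.63 times summed beta genes (log2 0.70 ± 0.15, n = 6), and in CPM without gene length the log2 ratio was −0.09.

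Several of these partners are neighbours in the genome. Chrna5, Chrna3 and Chrnb4 form the known cluster on chromosome 9, with 3563 bases between the gene bodies of Chrna5 and Chrna3 and 1596 bases between Chrna3 and Chrnb4. Chrna5 lies on the plus strand and the other two on the minus strand. Despite this closeness their levels were far apart, at 0.1645, 3.05 and 1.31 RPKM. Chrnb3 and Chrna6 lie on opposite strands of chromosome 8 with 3484 bases between them, and had 0.311 and 6.14 RPKM. Both pairs of extremes, Chrna3 with Chrna5 and Chrna6 with Chrnb3, kept their order in 6 of 6 libraries.

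Female and male libraries were then compared, the one contrast that the labels vary by design. No nicotinic subunit gene was called in edgeR's quasi-likelihood test with Benjamini-Hochberg adjustment, where 5 of 15026 tested genes (0.0333%) passed an adjusted p of 0.05. Of the 10 members, 7 passed the filter on low counts, while Chrna2, Chrna5 and Chrna10 did not. None of the 7 had an unadjusted p below 0.05, against 166 of the 15026 tested genes. In none of the 7 were the sexes without overlap. The share of all genes without overlap was not counted, so nothing particular to the members is read from this. DESeq2 and limma-voom also called 0 members. In log2 fold change 3 were higher in females and 4 lower, with a median of −0.05 against −0.00496 for all tested genes.

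On the log2 scale Chrna7 had the widest gap, with 3.26 ± 1.12 RPKM in females and 2.09 ± 1.85 RPKM in males (SD, n = 3 each), or 0.62 ± 0.57 on the log2 scale (standard error). Its adjusted p in edgeR was 0.9997. The 95% intervals given here use a normal approximation, which makes them too narrow for 3 libraries per sex. That of Chrna7, from −0.51 to 1.75, leaves room for differences in both directions. Leaving out male B gave a log2 fold change of 1.57, with no member called, and leaving out male C gave 0.18, so single male libraries moved this value. Chrna6 averaged 5.50 ± 1.44 RPKM in females and 6.78 ± 3.32 RPKM in males (log2 fold change −0.30, standard error 0.34), and 0.17 on the log2 scale without male C. Chrnb2 differed least, at 6.46 ± 0.809 and 6.30 ± 0.407 RPKM, with a log2 fold change of 0.04 and an interval from −0.31 to 0.39. The other tested members had log2 fold changes of 0.17 (Chrna3), −0.05 (Chrnb3), −0.16 (Chrna4) and −0.20 (Chrnb4). With 3 libraries per sex, the interval passed 1 log2 unit upward for Chrna7 and in both directions for Chrnb3, from −1.39 to 1.28. That of Chrna6 reached −0.96. Since these intervals are too narrow, they do not show that the other members stay within 1 log2 unit. The libraries came from different embryos, and their spread in males mixes a single embryo with pools.

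**Figure D3:**
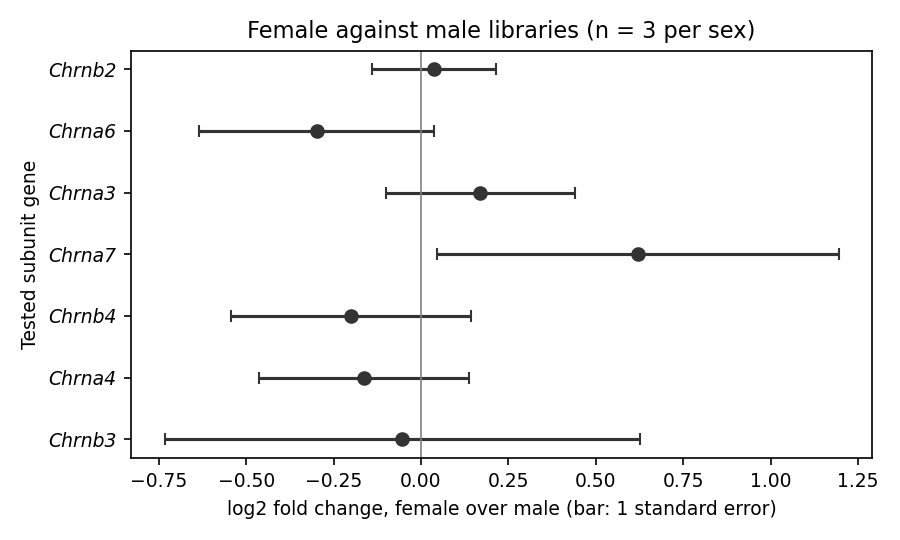
log2 fold change of female over male libraries (n = 3 per sex) for the 7 tested subunit genes, with bars of 1 standard error from edgeR. Points run from −0.30 for Chrna6 to 0.62 for Chrna7, and no gene was called.

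Subunits of muscle and cochlear receptors were near or below 1 RPKM. Of 6 genes, 3 passed the filter and 0 were called between the sexes. Chrnb1, the muscle beta subunit, measured 0.673 ± 0.115 RPKM, Chrna1, its alpha partner, 0.369 ± 0.0920, and the adult muscle subunit gene Chrne 0.349 ± 0.0981 (SD, n = 6). Chrnd, which muscle receptors also need, had 0 reads in all libraries. Chrna9, the partner of Chrna10, had 5 reads and Chrna10 itself 4, so both genes of the cochlear receptor were at the edge of detection. Chrna9 was chosen after its values were seen.

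Muscarinic receptors, the G-protein-coupled receptors for acetylcholine, were led by inhibitory types. Chrm4 measured 4.81 ± 1.03 RPKM and Chrm2 1.86 ± 0.516 RPKM (SD, n = 6), both coupled to inhibitory G proteins. Chrm1 followed at 0.690 ± 0.333 RPKM and Chrm3 was lowest at 0.0981 ± 0.0588 RPKM. Chrm4 thus lay between Chrna6 and Chrna3 in mean level. Of the 5 genes, 4 were tested and 0 called between the sexes.

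Among 8 genes of acetylcholine handling, those for the enzymes that break it down were expressed, while the gene for its synthesis had 1 read. Ache, acetylcholinesterase, measured 3.66, 5.41 and 11.3 RPKM in the female libraries A, B and C and 4.39, 12.3 and 6.95 RPKM in the male libraries A, B and C. Female C and male B stood highest, as they did for Chrna7. Bche, butyrylcholinesterase, averaged 3.82 ± 0.967 RPKM, and the choline transporter-like gene Slc44a1 6.25 ± 0.631 RPKM (SD, n = 6). Chat, which makes acetylcholine, had 1 read, and the vesicular transporter gene Slc18a3, named after its values were seen, had 5 reads. Slc5a7, the high-affinity choline transporter used by cholinergic neurons and also named after its values were seen, nevertheless measured 2.42 ± 0.535 RPKM. Of these 8 genes, 5 were tested and 0 called between the sexes.

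Chaperones and accessory proteins of nicotinic receptors ranged from 85.5 RPKM down to a single read, and 6 of the 17 had a higher mean than Chrnb2. Of the 17 genes, 12 had a mean above 1 RPKM, 14 were tested and 0 were called between the sexes. Ywhah, an adaptor protein that binds the Chrna4 product, had the highest mean at 85.5 ± 8.78 RPKM, followed by Rer1, a retention factor of the early secretory pathway, at 64.3 ± 7.498 RPKM (SD, n = 6). Tmem35a, also called NACHO and needed for assembly of Chrna7 receptors, measured 40.0 ± 8.91 RPKM, and Slurp1 was lowest with 1 read. Further members were picked after their values were seen. Ric3, another Chrna7 chaperone, measured 3.42 ± 0.713 RPKM, close to Chrna7 itself. Lynx1, a membrane-tethered protein that dampens nicotinic currents, measured 3.66 ± 1.34 RPKM with its lowest value, 1.65, in male C. Rapsn, which clusters muscle receptors, measured 14.9 ± 1.56 RPKM. Ly6h, which limits Chrna7 receptors at the surface, was highest in male B at 7.57 RPKM and female C at 5.75 RPKM and lay between 1.79 and 3.07 RPKM elsewhere. All 48 reads of Psca came from female C.

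**Figure D4:**
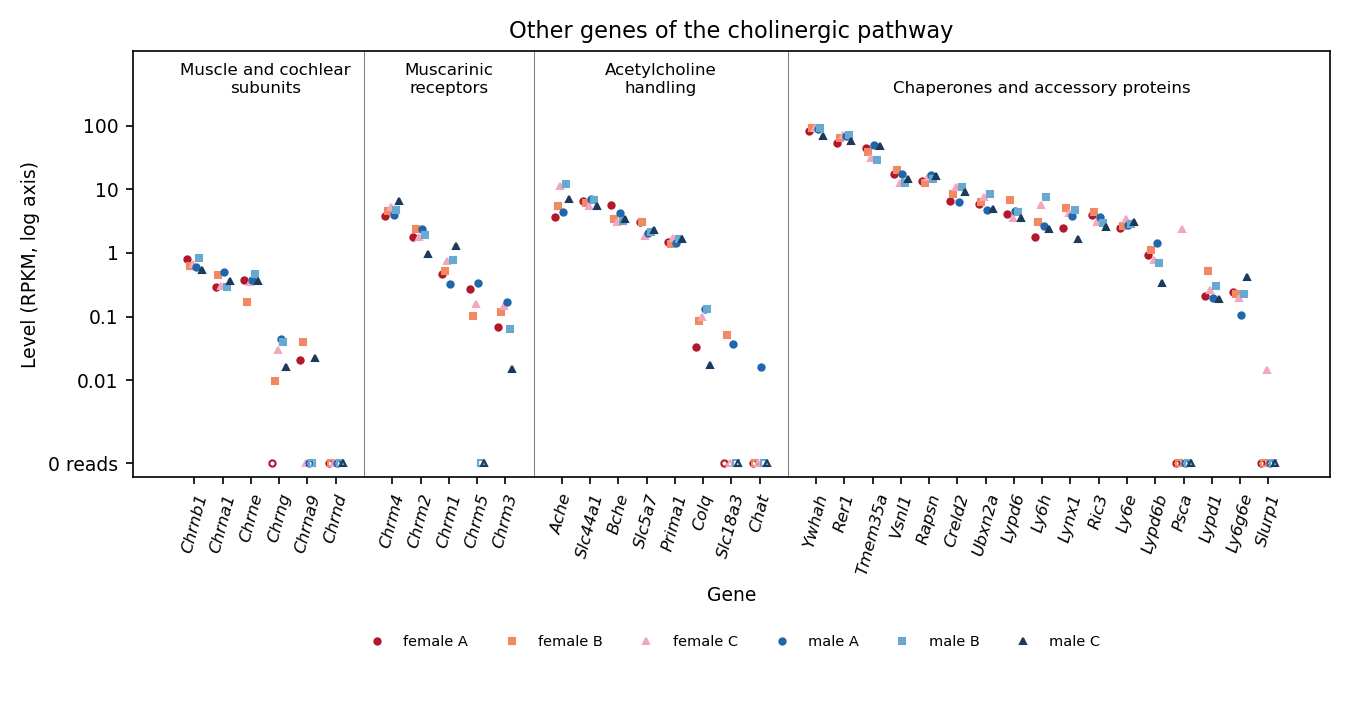
Level in RPKM on a log axis of 36 other genes of the cholinergic pathway in 4 groups, 1 symbol per library, with open symbols on the lower line for 0 reads. Ywhah is the highest gene at 85.5 RPKM on average, and Chrnd has open symbols only.

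The genes whose levels followed the 3 leading members most closely over the 6 libraries were found by Pearson correlation of log2 CPM among 10335 genes with a mean of 5 CPM or more. For Chrnb2 they were Glis2 (r = 0.992), Zfp46 (0.983) and Fam222b (0.975), and 0.319% of genes reached 0.9. For Chrna6 they were Hnrnpf, Sept2 and Fdft1, each with r = 0.995, and 2.91% of genes reached 0.9. For Chrna3 they were Ccnjl (r = 0.978), Tgfa (0.978) and Imp4 (0.970), with 0.387% reaching 0.9. Glis2 and Zfp46 encode zinc-finger proteins, Hnrnpf an RNA-binding protein, Sept2 a septin, Fdft1 squalene synthase and Tgfa a growth factor. Spearman's rho lay between 0.829 (Imp4) and 1. With the 2 libraries farthest from the member's median left out, r lay between 0.658 (Imp4) and 0.974 (Glis2) over the other 4. These correlations rest on 6 libraries of unequal depth and with the groups of like libraries described above, and each gene named was picked as the highest of 10335.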

How the data were processed

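The 6 libraries were made from total RNA of sorted cells, from which cDNA was made and amplified (SMARTer low-input chemistry) and sequenced on an Illumina HiSeq, per the labels' protocols. For each library the authors deposited read counts, CPM and RPKM for 41388 genes. Counts per gene came from featureCounts 1.4.5 of Subread on GRCm38.p2, per the submitters' processing notes. For the aligner, annotation release, strand setting and multi-mapping reads, details were not given in the sources used here, and no default was assumed. The CPM and RPKM the authors deposited equal the counts scaled by library total and gene length, which was checked. Levels were recomputed from the counts with TMM-scaled library sizes (edgeR 4.0.16, R 4.3.3), and the deposited RPKM served as an alternative. GENCODE M21 gave symbols to 40254 identifiers (97.26%). Sequences came from GENCODE M21 transcripts, as the longest open reading frame, and from RefSeq promoters.

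Sex was tested with edgeR's quasi-likelihood test after filterByExpr, two-sided, over all genes, and the script was tested on simulated data. Alternatives were DESeq2 1.42.0 and limma-voom (limma 3.58.1), 2 other scalings (RLE, upper quartile), 2 other filters (none, or 1 CPM in 3 libraries), a block for the letter, a covariate for the number of embryos, and each library left out. Dispersions used an intercept alone, with sex as a covariate as an alternative. Log2 CPM used a prior count of 2. The text names all members and, of each pathway list, the 3 highest and the lowest gene, any gene called between the sexes, and the 3 genes most like each of the 3 leading members. Members and lists were chosen with earlier results of these data known. Read totals of 15693013 to 24033601 per library limit precision for genes of few reads.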

Additional observations from a re-analysis of the deposited data

Results flagged for a closer look

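The log2 ratio of summed alpha to summed beta subunit levels was 0.97 in female A, a ratio of 1.963, while the ratio lay between 1.499 and 1.653 in the other 5 libraries. The gap to the next library exceeded Dixon's 95% critical value for 6 samples. It was found among 9 subunit levels and 6 ratios, and chance flags about 1 in 20 groups. In female A Chrnb2 was at its lowest, 5.53 RPKM, and Chrna6 at its second highest, 7.09 RPKM.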

How the results depend on the processing

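Mean levels stayed within 1 SD of the reported value under RLE factors and the deposited RPKM. Mean log2 ratios within libraries cannot change under these alternatives, since the scaling of a library cancels. Leaving out 1 library at a time cannot move a mean by 1 SD, so that limit was no test of single libraries. Without male C the mean RPKM of Chrna7 (3.11) passed that of Chrna3 (3.02). CPM without gene length gave log2 ratios of 1.02 for Chrnb2 over Chrna6, 0.011 for Chrnb4 over Chrna4, −2.91 for Chrna7 over Chrnb2 and −0.094 for summed alpha over summed beta genes, which reversed. The construction of that alternative shows the cause, since the genes differ in length. Between the sexes, 0 members were called under all 14 alternatives. Without a filter 12 genes of 25803 passed, and under the other alternatives 5 to 7. With the letter as a replicate block 5 genes and 0 members passed. Letters did not pair the libraries: deviations from the sex means correlated by 0.284 for A, −0.294 for B and −0.077 for C, and female C correlated best with male B (0.549). The log2 fold change of Chrnb3 reversed to 0.44 with limma-voom, 0.14 with the replicate block and 0.38 with the number of embryos as a covariate, and the cause was not tested. Leaving out 1 library each gave −0.042 to 0.32 for Chrna3, −0.34 to 0.047 for Chrna4, −0.53 to 0.17 for Chrna6, −0.027 to 0.14 for Chrnb2, −0.56 to 0.78 for Chrnb3 and −0.39 to 0.19 for Chrnb4. Chrna7 kept its sign, and its unadjusted edgeR p was 0.00896 with the number of embryos as a covariate and 0.0102 without male B, against adjusted p-values of 0.9987 and 0.9997 or higher. Over all alternatives the lowest adjusted p of any member was 0.8669, without female C. Depth limits Chrna5, Chrna10 and Chrna2, which did not pass the filter of the reported fit. Without a filter 9 members were tested, and 8 in the fits without female B, female C, male B or male C.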
